A study of Mus musculus with 74 samples.

Results

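The expression of 36 genes of meiosis and of the piRNA pathway was followed in 35 RNA-seq libraries of mouse embryonic stem (ES) cells. The members were listed by function, as meiotic and piRNA-pathway genes whose promoters are normally methylated and silent in primed cells, the pluripotent cells of the embryo after implantation, and all of them were found among the 37620 genes measured. They comprise 3 RNA-binding proteins of germ cells, 7 proteins of the synaptonemal complex and chromosome axis, 3 subunits of meiotic cohesin, 5 recombination proteins, 6 PIWI proteins and factors of piRNA biogenesis, 7 proteins of the germ granule, 3 transcription and chromatin factors and 2 other germ cell genes.

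Meiosis reduces the chromosome set, and for this the homologous chromosomes are broken and recombined along a protein axis held together by dedicated cohesins and joined by the synaptonemal complex. In the germ line, PIWI proteins loaded with piRNAs, short RNAs made by helicases, Tudor proteins and mitochondrial scaffold proteins, silence transposons. Many of the genes for both processes have CpG-rich promoters that are methylated when the embryo implants and that stay silent in somatic cells, whereas naive ES cells, which resemble the embryo before implantation, transcribe several of them.

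SunTag cells were derived from E14Tg2a (Tg2a) ES cells and carry an inactive Cas9 that recruits transcriptional activators once doxycycline (Dox) is given, so that a guide RNA switches on the endogenous promoter it matches. Nanog SunTag cells carry a guide for the promoter of Nanog, a transcription factor of self-renewal, and Nanog/Otx2 SunTag cells carry an additional guide for Otx2, a transcription factor of the exit from the naive state. Both were grown for 3 days with or without LIF (10 ng/mL), the cytokine that keeps ES cells undifferentiated, and with or without Dox (1 µg/mL). 44iN cells are Nanog-null ES cells with a Dox-inducible Nanog transgene, sequenced while in Dox, after 24 h without it and after long-term growth without it, beside wild-type Tg2a cells in serum, all with LIF. The authors kept the long-term cells under selection with the drug G418.

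The 11 Nanog SunTag libraries were 3 with LIF and without Dox (+LIF −Dox), 2 with both (+LIF +Dox), 3 with neither (−LIF −Dox) and 3 with Dox alone (−LIF +Dox). The 15 Nanog/Otx2 SunTag libraries were 3, 4, 4 and 4 in the same order, and there were 2 libraries of each 44iN condition and 3 of Tg2a cells. Each SunTag line is a single clone, 1 from each of the parental SunTag clones C1 and C2, and the Nanog/Otx2 lines (C1ON3 and C2ON3) were made from the Nanog lines. Nothing in the labels says that libraries of the same line came from separate cultures, so that p-values measure the spread between these libraries, which may be technical. Estimated counts summed to between 6107512 (a +LIF −Dox library of C2ON3) and 92244655 per library. Values of single libraries are given below with clone C1 before clone C2, as normalised counts, the estimated counts divided by a size factor of the library. In bulk RNA, fewer cells that express a gene and less RNA of it per cell cannot be told apart.

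Nanog, the target of the guides and of the knockout, had 21940 to 29487 normalised counts in +LIF −Dox, 75226 to 93813 in +LIF +Dox, 2234 to 8484 in −LIF −Dox and 45041 to 55641 in −LIF +Dox Nanog SunTag cells. The corresponding ranges in Nanog/Otx2 SunTag cells were 18320 to 20533, 40628 to 48558, 1974 to 6867 and 31697 to 48471, and those of Otx2 were 736 to 1062, 3214 to 3806, 3372 to 5148 and 6827 to 7347. In 44iN cells Nanog had 13366 and 18394 normalised counts with Dox, 706 and 739 at 24 h and 276 and 228 in long-term culture, against 19420 to 20261 in Tg2a cells.

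RefSeq promoter sequences (build GRCm38.p6, from 250 bases before to 50 bases after an annotated start) were found for 31 of the 36 members. Piwil2, Spo11, Dnd1, Tdrd6 and Tex15 had no entry in the table. These promoters were searched on both strands for TCCCGC, the letters that E2F factors such as the germline repressor E2F6 are known to bind, and for CACGTG, the E-box letters bound by MAX-containing dimers such as MGA with MAX. TCCCGC was found in 13 members (41.9%) against 22% of the 27025 genes in the table, CACGTG in 14 (45.2%) against 8.09%, both in 7 (22.6%) against 2.65%, and neither in 11 (35.5%) against 72.5%. A gene was counted if any of its listed promoters held the letters. Taking for each gene the promoter with the most CG dinucleotides, the median number of these was 20 over the members and 8 over all genes in the table. A match of letters is a description of the sequence and does not show that a factor binds there.

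The 150 bases before the start are given for 8 members to which the results below return, for Tex14, Smc1b, Sohlh2, Hormad1 and Dazl because they changed most often or by much, for Tdrd1 because it went the other way, and for Sycp3 and Mael as members of the clone comparison. Capitals mark TCCCGC, read on either strand, and CACGTG.
Tex14 (chr11:87404915-87405064, plus strand): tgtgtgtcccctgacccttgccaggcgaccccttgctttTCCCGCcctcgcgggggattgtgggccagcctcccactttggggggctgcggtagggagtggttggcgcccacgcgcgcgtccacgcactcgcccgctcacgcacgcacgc
Smc1b (chr15:85131958-85132107, minus strand): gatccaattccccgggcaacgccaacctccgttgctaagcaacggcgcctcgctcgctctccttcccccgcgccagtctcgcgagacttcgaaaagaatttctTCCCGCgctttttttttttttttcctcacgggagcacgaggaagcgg
Sohlh2 (chr3:55181894-55182043, plus strand): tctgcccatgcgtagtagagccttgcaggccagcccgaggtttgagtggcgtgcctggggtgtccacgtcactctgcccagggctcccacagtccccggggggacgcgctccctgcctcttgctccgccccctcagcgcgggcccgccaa
Hormad1 (chr3:95559527-95559676, plus strand): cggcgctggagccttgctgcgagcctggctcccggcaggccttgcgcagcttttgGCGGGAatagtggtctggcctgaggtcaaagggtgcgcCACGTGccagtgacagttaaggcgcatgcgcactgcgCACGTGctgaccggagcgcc
Dazl (chr17:50293621-50293770, minus strand): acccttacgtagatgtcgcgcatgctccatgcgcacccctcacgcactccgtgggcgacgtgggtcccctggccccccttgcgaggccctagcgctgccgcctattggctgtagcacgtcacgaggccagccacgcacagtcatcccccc
Tdrd1 (chr19:56826059-56826208, plus strand): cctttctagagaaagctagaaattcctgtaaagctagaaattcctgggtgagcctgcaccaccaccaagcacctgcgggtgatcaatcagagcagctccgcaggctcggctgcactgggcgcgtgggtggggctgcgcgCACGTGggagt
Sycp3 (chr10:88459437-88459586, plus strand): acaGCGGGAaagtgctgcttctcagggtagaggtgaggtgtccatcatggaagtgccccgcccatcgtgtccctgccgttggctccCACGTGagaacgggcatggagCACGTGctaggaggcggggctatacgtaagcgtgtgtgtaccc
Mael (chr1:166238745-166238894, minus strand): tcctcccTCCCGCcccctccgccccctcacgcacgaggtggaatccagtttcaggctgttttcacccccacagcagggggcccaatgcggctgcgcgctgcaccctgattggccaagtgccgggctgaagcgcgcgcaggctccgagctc
Tex14, Smc1b and Mael held TCCCGC alone in these stretches (the whole promoter of Mael also holds CACGTG), Tdrd1 held CACGTG alone, Hormad1 and Sycp3 held both, each with CACGTG at 2 places, and Dazl and Sohlh2 held neither. The table lists 2 starts for Hormad1 and 3 for Tdrd1, of which 1 is shown.

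Most members were detected in ES cells kept in LIF. In +LIF −Dox Nanog SunTag cells, 17 of the 36 had at least 100 normalised counts per kilobase of exon, 13 had 10 to 100 and 6 had fewer than 10, with a median of 61.5. In Tg2a cells the numbers were 15, 15 and 6, with a median of 71.1. Per kilobase of exon the levels of Tg2a cells ran from 0.434 ± 0.145 (SD, n = 3) for Spo11, which makes the DNA breaks of meiosis, to 930.5 ± 262.5 for Sycp3, a protein of the chromosome axis. The members at the top of this order in Tg2a cells were Sycp3, Syce2 (711.8 ± 185.5), Mael (663 ± 112), Hormad1 (640.0 ± 114) and Syce1 (639.7 ± 124.5), and neighbours in this order lay within their spread of each other. The highest library of Spo11 had 17.2 normalised counts, that of Tdrd6 39.3, that of Tdrd9 53.4 and that of Mei1 57.2.

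**Figure D1:**
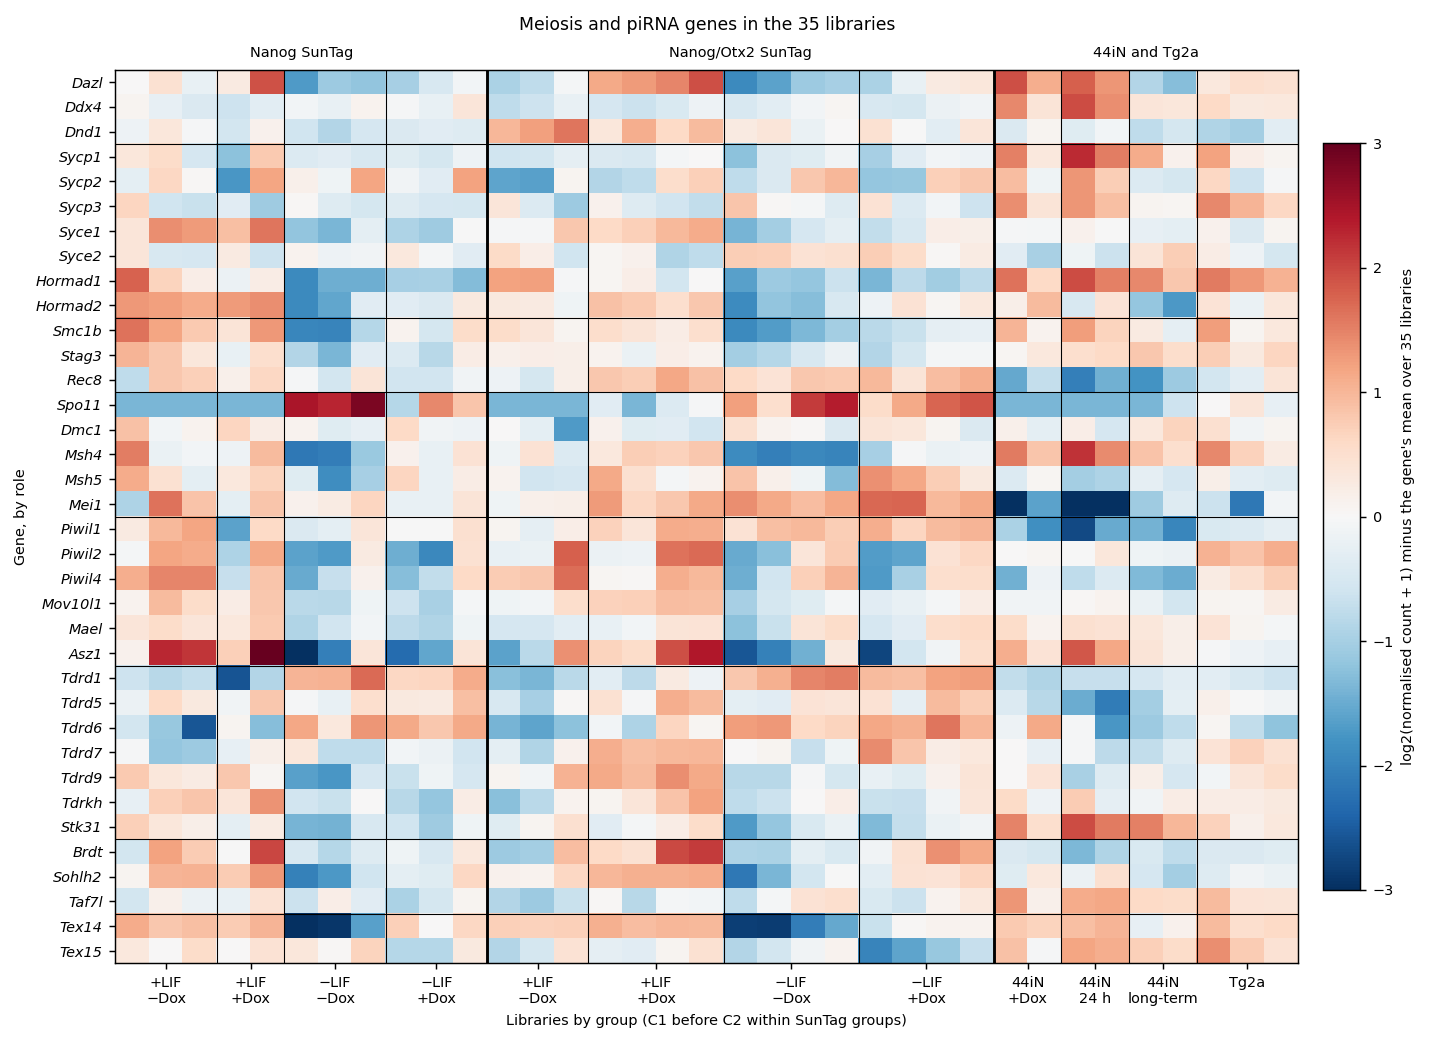
Heat map of the 36 members (vertical axis, by role) in the 35 libraries (horizontal axis, by group), coloured by the log2 normalised count relative to the mean of the gene over all libraries, with the colours limited at 3 on either side. In the −LIF −Dox columns of both SunTag lines Tex14, Smc1b and Hormad1 are blue and Tdrd1 is red, whereas Piwil2 and Asz1 differ between the columns of C1 and C2.

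On withdrawal of LIF without Dox, 16 of the 36 members fell and 3 rose in Nanog SunTag cells (edgeR's quasi-likelihood test, Benjamini-Hochberg adjusted p under 0.05). Of all 15624 genes tested, 21.3% fell and 20.2% rose. Among the 3 members that rose were Spo11 and Tdrd6, which were near the limit of detection with LIF. Tex14, a component of the intercellular bridges of germ cells, and Smc1b, a cohesin subunit of meiosis, were among those that fell by the most. The median log2 fold change was −0.96 over the members and −0.05 over all genes tested. The clones were not balanced, with 1 C1 and 2 C2 libraries with LIF and 2 C1 and 1 C2 libraries without. With the parental clone held constant in a replicate block the medians were −0.69 and −0.03.

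Tex14 had 1837, 1487 and 1582 normalised counts in +LIF −Dox libraries and 101, 109.9 and 270.4 in −LIF −Dox libraries. The groups did not overlap, and its log2 fold change was −3.37 (SE 0.36, adjusted p = 3.73e-05). Smc1b had 1676, 1230.3 and 936 normalised counts with LIF and 139, 138 and 301 without, a log2 fold change of −2.75 (SE 0.41, adjusted p = 0.000339). Its libraries without LIF were again all below those with LIF.

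Hormad1, which coats the unsynapsed chromosome axis, had 1516, 709 and 509 normalised counts with LIF and 118, 162 and 159.8 without. Its spread with LIF was wide, the C1 library being the highest, yet the groups did not overlap and the log2 fold change was −2.66 (SE 0.37, adjusted p = 0.000208). Sohlh2, a transcription factor of early gametogenesis, had 1114, 2130.5 and 2152 normalised counts with LIF and 254, 317 and 689.6 without, a log2 fold change of −2.12 (SE 0.41, adjusted p = 0.00192). In both conditions its C2 libraries lay above those of C1.

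Among the RNA-binding proteins, Dazl, a translational regulator of germ cells, fell by 1.44 on the log2 scale, from 753 ± 182 (SD, n = 3) to 281 ± 59.8 (SD, n = 3) normalised counts, and Dnd1, which protects germ cells, had a log2 fold change of −0.74. Ddx4, the germ cell helicase also called Vasa, did not pass the test. Of the 7 genes of the synaptonemal complex and chromosome axis, Syce1, Hormad1 and Hormad2 fell, with log2 fold changes between −2.66 and −1.96, and Sycp1, Sycp2, Sycp3 and Syce2 did not pass. Stag3, another meiotic cohesin subunit, fell by 1.57 on the log2 scale, and the recombination genes Msh4 and Msh5, which stabilise crossovers, had log2 fold changes of −2.48 and −1.48. Msh4 was a low gene, with 21.8 to 75.0 normalised counts with LIF and 4.89 to 11.1 without.

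In the piRNA pathway Piwil4, a nuclear PIWI protein, Mov10l1, the helicase of primary piRNA processing, and Mael fell, with log2 fold changes of −1.94, −1.14 and −0.94. Among germ granule genes Tdrd9 and Stk31 fell, with log2 fold changes of −1.78 and −1.48. Tdrd1, which binds methylated PIWI proteins, went the other way. It had 126, 109 and 119 normalised counts with LIF and 396, 403 and 633 without, a log2 fold change of 2.00 (SE 0.37, adjusted p = 0.00131), and its groups did not overlap.

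The other members that rose were near the limit of detection with LIF. Spo11 had 0 counts in the 3 +LIF −Dox libraries and 13.0, 11.6 and 17.2 normalised counts in −LIF −Dox libraries, at least 2.49-fold higher when 3 counts per library are taken as the floor. Tdrd6, a Tudor protein of late spermatogenesis, had 8.03, 5.03 and 1.25 normalised counts with LIF, at most 3 counts in any library, and 28.5, 15.5 and 32.0 without. Both remained weakly expressed without LIF, and no fold is given for Tdrd6.

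Tex14, Smc1b, Hormad1 and Sohlh2 were called in 11 of 11 fits that left out a library. The number of members called was 13 without the −LIF −Dox library C1-1 and 22 at its highest, when either +LIF +Dox library was left out. With the parental clone as a replicate block it was 22, and members that passed only then were Piwil2 at a log2 fold change of −1.18 (SE 0.23, adjusted p = 0.00172), Asz1 at −2.33 (SE 0.47, adjusted p = 0.00219) and Tdrkh at −0.53 (SE 0.19, adjusted p = 0.0405). Dnd1 was called in 3 of the 11 fits that left out a library. Over all genes the block raised the calls from 6481 to 7239. Taken within a clone, 28 of 36 members were below 0 in C1 and 26 in C2, with medians of −0.86 and −0.73, and Ddx4, Sycp3, Rec8 and Mei1 were among the members whose sign differed between the clones. Here C1 had 1 +LIF −Dox library and C2 had 1 −LIF −Dox library, and the share of all genes below 0 within a clone was not computed.

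**Figure D2:**
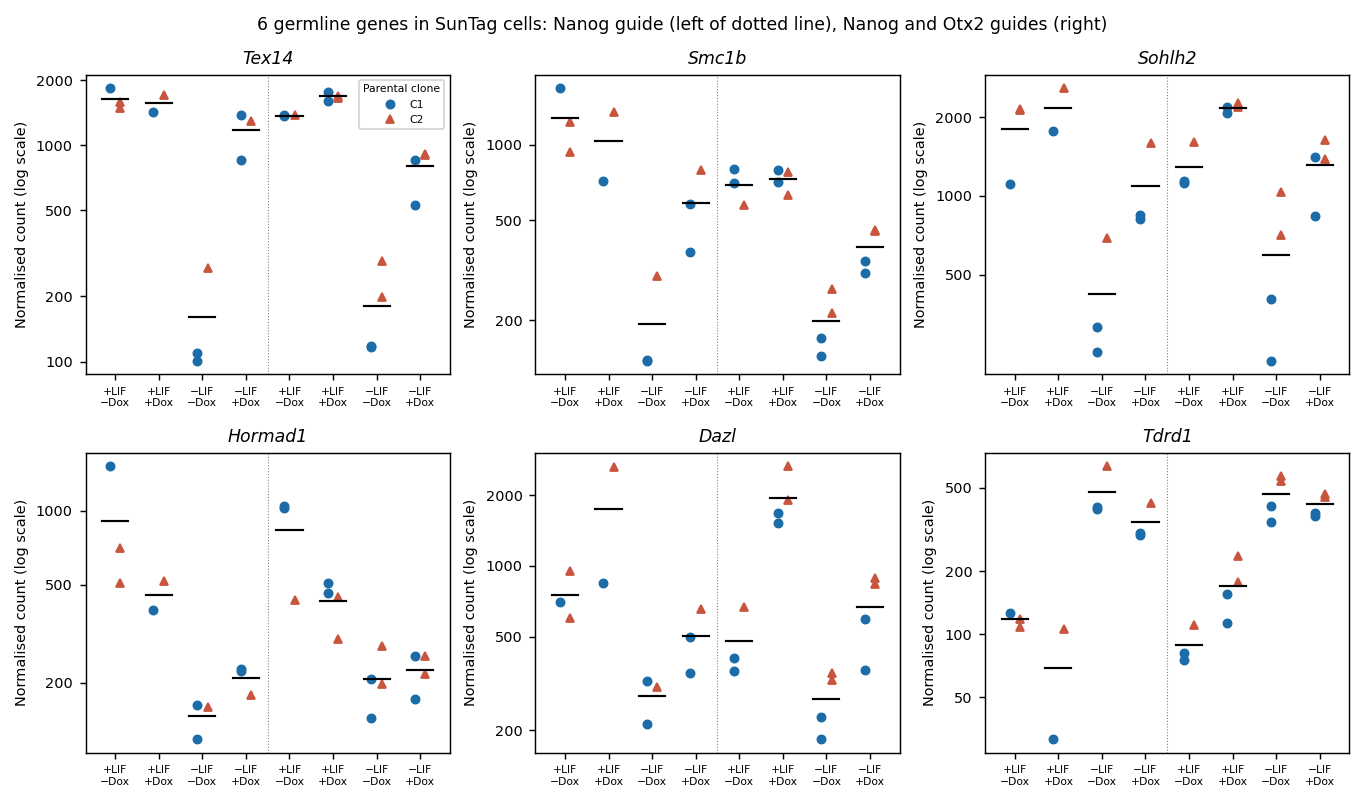
Normalised counts on a log axis of Tex14, Smc1b, Sohlh2, Hormad1, Dazl and Tdrd1 in the 8 SunTag groups (horizontal axis), with 1 circle per C1 library, 1 triangle per C2 library and a bar at the group mean. Tex14 averaged 1635 in +LIF −Dox, 160.4 in −LIF −Dox and 1174 in −LIF +Dox Nanog SunTag cells, and Tdrd1 is higher without LIF.

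The same withdrawal in Nanog/Otx2 SunTag cells was followed by a fall of 12 of 35 members tested and a rise of 6, where 25.2% of all 15609 genes fell and 24.6% rose. Spo11 did not pass the filter on low counts here. All 12 that fell (100%) were among the 16 that fell in Nanog SunTag cells, of which they made up 75.0%, and they were Dnd1, Syce1, Hormad1, Hormad2, Smc1b, Stag3, Msh4, Mov10l1, Tdrd9, Stk31, Sohlh2 and Tex14. This overlap was not counted over all genes, and the Nanog/Otx2 lines were made from the Nanog lines, so that it does not set the members apart. The median over the members was −0.07 and that over all genes −0.01. Here 2 C1 libraries and 1 C2 library had LIF, against 2 of each clone without it. With the clone and its number as a replicate block the medians were −0.23 and −0.02.

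Tex14 had 1375, 1361 and 1375 normalised counts with LIF and 117, 116, 199 and 290.5 without, a log2 fold change of −2.97 (SE 0.26, adjusted p = 3.8e-07). Smc1b had 799, 705 and 574 with LIF and 144, 170.4, 213 and 266 without, a log2 fold change of −1.86 (SE 0.20, adjusted p = 2.78e-06). For both genes every library without LIF was below every library with LIF, and without LIF those of C2 were above those of C1. Hormad1 fell with a log2 fold change of −2.08 (SE 0.28, adjusted p = 2.68e-05) and Msh4 with one of −2.23 (SE 0.30, adjusted p = 2.33e-05).

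The 6 members that rose were Tdrd1, Tdrd6, Rec8, Mei1, Piwil1 and Taf7l. Tdrd1 had 81.8, 75.4 and 111 normalised counts with LIF and 345, 408, 542 and 569.8 without, a log2 fold change of 2.42 (SE 0.26, adjusted p = 2.53e-06). Tdrd6 had 4.02, 3.40 and 4.63 with LIF and 25.4 ± 6.74 (SD, n = 4) without, a log2 fold change of 2.69 (SE 0.41, adjusted p = 7.43e-05). Neither gene's groups overlapped, as in Nanog SunTag cells.

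Rec8, the meiotic kleisin subunit of cohesin, had 110.0, 84.4 and 139 normalised counts with LIF and 187, 162, 217 and 211 without, a log2 fold change of 0.83 (SE 0.21, adjusted p = 0.00361). Mei1, required for meiotic DNA breaks, and Piwil1, the PIWI protein of meiotic and later male germ cells, rose by 1.14 and 0.77 on the log2 scale, and both were low, with 31.6 to 44.5 and 71.2 to 105 normalised counts without LIF. Taf7l, a germ cell subunit of a general transcription factor, had a log2 fold change of 0.98 (SE 0.34, adjusted p = 0.026) although its groups overlapped. Spo11 had 0 counts in the 3 libraries with LIF and 5.02, 2.64, 9.99 and 12.2 normalised counts without, at least 1.27-fold higher against the same floor.

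With the clone and its number as a replicate block, 28 members were called in this comparison, 12 higher and 16 lower, against 18 without it. Among the additional calls were Dazl at −0.98 (SE 0.13, adjusted p = 1.96e-05), Piwil2 at −1.28 (SE 0.10, adjusted p = 1.17e-07), Piwil4 at −1.48 (SE 0.25, adjusted p = 0.000156) and Asz1 at −1.55 (SE 0.47, adjusted p = 0.0109) on the lower side and Sycp2 at 0.88 (SE 0.14, adjusted p = 8.93e-05) on the higher side, all of them members whose level differed between the clones. The block raised the calls over all genes as well, from 7768 to 9642 of 15609. The count of members ranged from 15 to 19 when a library was left out, and Stk31 was called in 7 of 15 such fits. Taken within a clone, 19 of 36 members were below 0 in C1 and 20 in C2, with medians of −0.10 and −0.47. C2 had 1 +LIF −Dox library here, and the share of all genes below 0 within a clone was not computed.

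The fixed lists of other genes moved with LIF as well. Of 13 genes known to repress germline genes, 5 passed the test in each line, all of them higher without LIF. In Nanog SunTag cells these were Dnmt3a, Dnmt3b, Mga, Ehmt1 and E2f6, and in Nanog/Otx2 SunTag cells Pcgf6 took the place of Mga. The summed level of the list in Nanog SunTag cells was 55710 to 67066 normalised counts in +LIF −Dox libraries and 140330 to 152900 in −LIF −Dox libraries, and it was 63253 to 76546 and 147320 to 168340 in Nanog/Otx2 SunTag cells. The median log2 fold change over the list was smaller, 0.36 in Nanog SunTag and 0.14 in Nanog/Otx2 SunTag cells. Dnmt3b, which is also among the post-implantation genes below, rose by 4.07 and 3.38 on the log2 scale. The sums therefore do not describe the list as a set. The 6 naive ES genes summed to 59084 to 67250 with LIF and 1973 to 3163 without it in Nanog SunTag cells, all 6 having fallen, and the 5 genes of the post-implantation epiblast summed to 3809 to 7270 and 74397 to 88365. Pou3f1, 1 of these 5, is listed under a pair of identifiers, both of which are included. The part of these genes in the changes of the members was not tested.

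Of 6 genes of primordial germ cell specification, 5 were tested in Nanog SunTag cells and 4 of them fell, Kit, Tfap2c, Prdm1 and Prdm14, and all 6 fell in Nanog/Otx2 SunTag cells. Their summed level in Nanog SunTag cells went from 4904 to 5749 normalised counts with LIF to 907 to 1163 without. A further list of 47 meiosis and piRNA genes, of which 38 were in the table, was measured beside the members. In Nanog SunTag cells 15 of its 33 tested genes fell and 2 rose, with a median log2 fold change of −0.86, and in Nanog/Otx2 SunTag cells 11 of 34 fell and 5 rose, with a median of −0.24. Morc1, Stra8, Gtsf1 and Hsf2bp were among those that fell in both lines and Rad21l and Cpeb1 rose in both. The 2-cell-like genes in the table, 8 of 13 listed, summed to 858 to 5974 normalised counts with LIF and 370.0 to 3030 without it in Nanog SunTag cells, and in Nanog/Otx2 SunTag cells 5 of 6 tested fell. The 9 primitive endoderm genes summed to 1034 to 2870.5 and 2304 to 2593 in Nanog SunTag cells, where 5 of 8 tested fell.

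When Dox was present, 8 of 36 members fell on LIF withdrawal and 1 rose in Nanog SunTag cells, where 15.5% of all genes fell and 17.1% rose. There were 12 of 35 that fell and 3 that rose in Nanog/Otx2 SunTag cells, where 17.9% fell and 18.7% rose. Asz1, Dazl, Hormad1, Mov10l1, Syce1 and Tdrkh fell in both, 75.0% of the 8 and 50.0% of the 12, and Tdrd1 rose in both. The overlap between the lines was not counted over all genes. The median log2 fold change of the members was −0.50 in Nanog SunTag cells and −0.58 in Nanog/Otx2 SunTag cells, and that of all genes −0.04 and −0.01. With the replicate block the medians of the members were −0.39 and −0.60.

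Dazl had 843 and 2635 normalised counts in +LIF +Dox libraries and 349, 497 and 659 in −LIF +Dox libraries of Nanog SunTag cells, a log2 fold change of −1.78 (SE 0.41, adjusted p = 0.00777). Its libraries of Nanog/Otx2 SunTag cells had 1518, 1682, 1910.3 and 2650.1 and 361, 593, 834 and 887, a log2 fold change of −1.55 (SE 0.29, adjusted p = 0.000754). The groups did not overlap in either line, and Dazl without LIF was highest in C2. Asz1, a mitochondrial scaffold of piRNA biogenesis, had 39.7, 36.2, 96.4 and 134 normalised counts with LIF and 2.79, 16.3, 22.8 and 35.5 without in Nanog/Otx2 SunTag cells, a log2 fold change of −1.99 (SE 0.74, adjusted p = 0.0481).

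Tdrd1 had 31.7 and 106 normalised counts in +LIF +Dox libraries and 343 ± 71.2 (SD, n = 3) in −LIF +Dox libraries of Nanog SunTag cells, a log2 fold change of 2.28 (SE 0.43, adjusted p = 0.00283). It had 157, 113, 237 and 177 and 381, 367, 454 and 469.5 in Nanog/Otx2 SunTag cells, a log2 fold change of 1.27 (SE 0.21, adjusted p = 0.000327). Tdrd1 was thus called higher without LIF in 4 of 4 comparisons, of both lines with and without Dox. Tex15, which acts in meiotic recombination and in piRNA-directed silencing, fell with LIF withdrawal in Nanog/Otx2 SunTag cells with Dox, from 355, 339, 457 and 586 to 108, 142, 193 and 264 normalised counts, and had a log2 fold change of −1.31 (SE 0.32, adjusted p = 0.0055). Without Dox its libraries with and without LIF overlapped and it did not pass.

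The number called in Nanog SunTag cells with Dox was 2 without the +LIF +Dox library C2-1, which leaves 1 library in that group, 5 without the −LIF +Dox library C1-1 and 4 without C1-1b of the same group. For Nanog/Otx2 SunTag cells the number was 22 with the replicate block, 3 higher and 19 lower, against 15 without it, and over all genes it was 8098 against 5699. Hormad1 was called in 3 and Mov10l1 in 7 of the 11 fits of Nanog SunTag cells that left out a library, and Asz1 in 7 of 15 of Nanog/Otx2 SunTag cells.

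On induction by Dox without LIF, 2 of 36 members passed the test in Nanog SunTag cells, Tex14 and Smc1b, both higher with Dox, where 3.6% of all genes rose. There were 8 of 35 that passed in Nanog/Otx2 SunTag cells, all higher with Dox, where 11.2% of all genes rose. The 8 were Dazl, Hormad2, Smc1b, Msh4, Tdrd7, Brdt, Sohlh2 and Tex14, and they included both members raised in Nanog SunTag cells, an overlap that was not counted over all genes. The −LIF −Dox libraries are those of the LIF comparison above, so that the fall on LIF withdrawal and the rise with Dox are not independent.

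Tex14 had 101, 109.9 and 270.4 normalised counts in −LIF −Dox and 1380, 851 and 1290.3 in −LIF +Dox libraries of Nanog SunTag cells, a log2 fold change of 2.91 (SE 0.35, adjusted p = 0.000897). The Nanog/Otx2 SunTag libraries had 117, 116, 199 and 290.5 without and 530.1, 857, 908 and 899.6 with Dox, and the log2 fold change was 2.19 (SE 0.25, adjusted p = 3.33e-05). Every library with Dox lay above every library without it in both lines, and Tex14 was called in each fit that left out a library. Their levels with Dox and without LIF, on average 1174 ± 283 (SD, n = 3) and 799 ± 180.5 (SD, n = 4) normalised counts, compare with 1635 ± 181 (SD, n = 3) and 1370.1 ± 8.10 (SD, n = 3) in +LIF −Dox cells.

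Smc1b had 139, 138 and 301 normalised counts without and 582, 375 and 792 with Dox in Nanog SunTag cells, a log2 fold change of 1.63 (SE 0.40, adjusted p = 0.0352). Its Nanog/Otx2 SunTag libraries had 144, 170.4, 213 and 266 and 309, 343, 453 and 459, a log2 fold change of 1.03 (SE 0.19, adjusted p = 0.00177), again without overlap. Sohlh2 had 235, 404, 710.3 and 1032 and 841, 1412, 1385 and 1632 normalised counts in Nanog/Otx2 SunTag cells, where the groups overlapped and the log2 fold change was 1.19 (SE 0.33, adjusted p = 0.0235). In Nanog SunTag cells the log2 fold change of Sohlh2 was 1.41 (SE 0.40, adjusted p = 0.0708) without and 1.46 (SE 0.16, adjusted p = 0.000261) with the replicate block.

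The other members raised in Nanog/Otx2 SunTag cells were Msh4, with a log2 fold change of 1.82 (SE 0.29, adjusted p = 0.000547), Brdt, a bromodomain protein of spermatocytes, with 1.50 (SE 0.49, adjusted p = 0.0459), Hormad2 with 1.38 (SE 0.24, adjusted p = 0.0014), Dazl with 1.35 (SE 0.29, adjusted p = 0.00592) and Tdrd7, a Tudor protein of the chromatoid body, with 0.98 (SE 0.28, adjusted p = 0.0252). Dazl had 184, 229, 326 and 349 normalised counts without Dox and 361, 593, 834 and 887 with it. Its groups did not overlap, although the highest library without Dox, of C2, came close to the lowest with Dox, of C1.

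In Nanog SunTag cells the number of members that changed was 4 with the replicate block, all higher, which added Hormad2 at 1.08 (SE 0.30, adjusted p = 0.0464) and Sohlh2. It was 1 without the −LIF −Dox library C1-1 or C1-2, the −LIF +Dox library C1-1 or the +LIF −Dox library C2-1, and 4 without the −LIF −Dox library C2-1 or the +LIF −Dox library C1-1. For Nanog/Otx2 SunTag cells it was 15 with the block, 14 higher and 1 lower (Tex15, which fell by 0.95 on the log2 scale), and 5 without the −LIF +Dox library C1ON3-2. Over all genes the block raised the calls from 803 to 1375 and from 2702 to 5215. Smc1b was called in 6 of 11 fits that left out a library in Nanog SunTag cells and in 15 of 15 in Nanog/Otx2 SunTag cells, and Brdt in 7 of these 15.

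The naive ES genes moved with Dox as well, all 6 being higher with it in each line, at median log2 fold changes of 2.52 and 2.42. Their sum went from 1973 to 3163 normalised counts without Dox to 19481 to 21795 with it in Nanog SunTag cells, and from 2489.8 to 3491 to 14300 to 20741 in Nanog/Otx2 SunTag cells. Of the post-implantation genes Dnmt3b, Fgf5, Sall2 and Pou3f1 fell in Nanog SunTag cells, and Dnmt3b and Pou3f1 fell while Otx2, a target of the guides, rose in Nanog/Otx2 SunTag cells. The sum of that list went from 74397 to 88365 to 34149 to 38531 in the former and from 91178 to 104610 to 54300 to 63625 in the latter. Of the genes of primordial germ cell specification, Kit, Tfap2c and Prdm14 rose in both lines and Prdm1 in Nanog/Otx2 SunTag cells. Of the other meiosis and piRNA genes 2 of 33 rose in Nanog SunTag cells, Hsf2bp and Morc1, and 4 of 34 in Nanog/Otx2 SunTag cells. The part of these genes in the changes of the members was not tested.

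**Figure D3:**
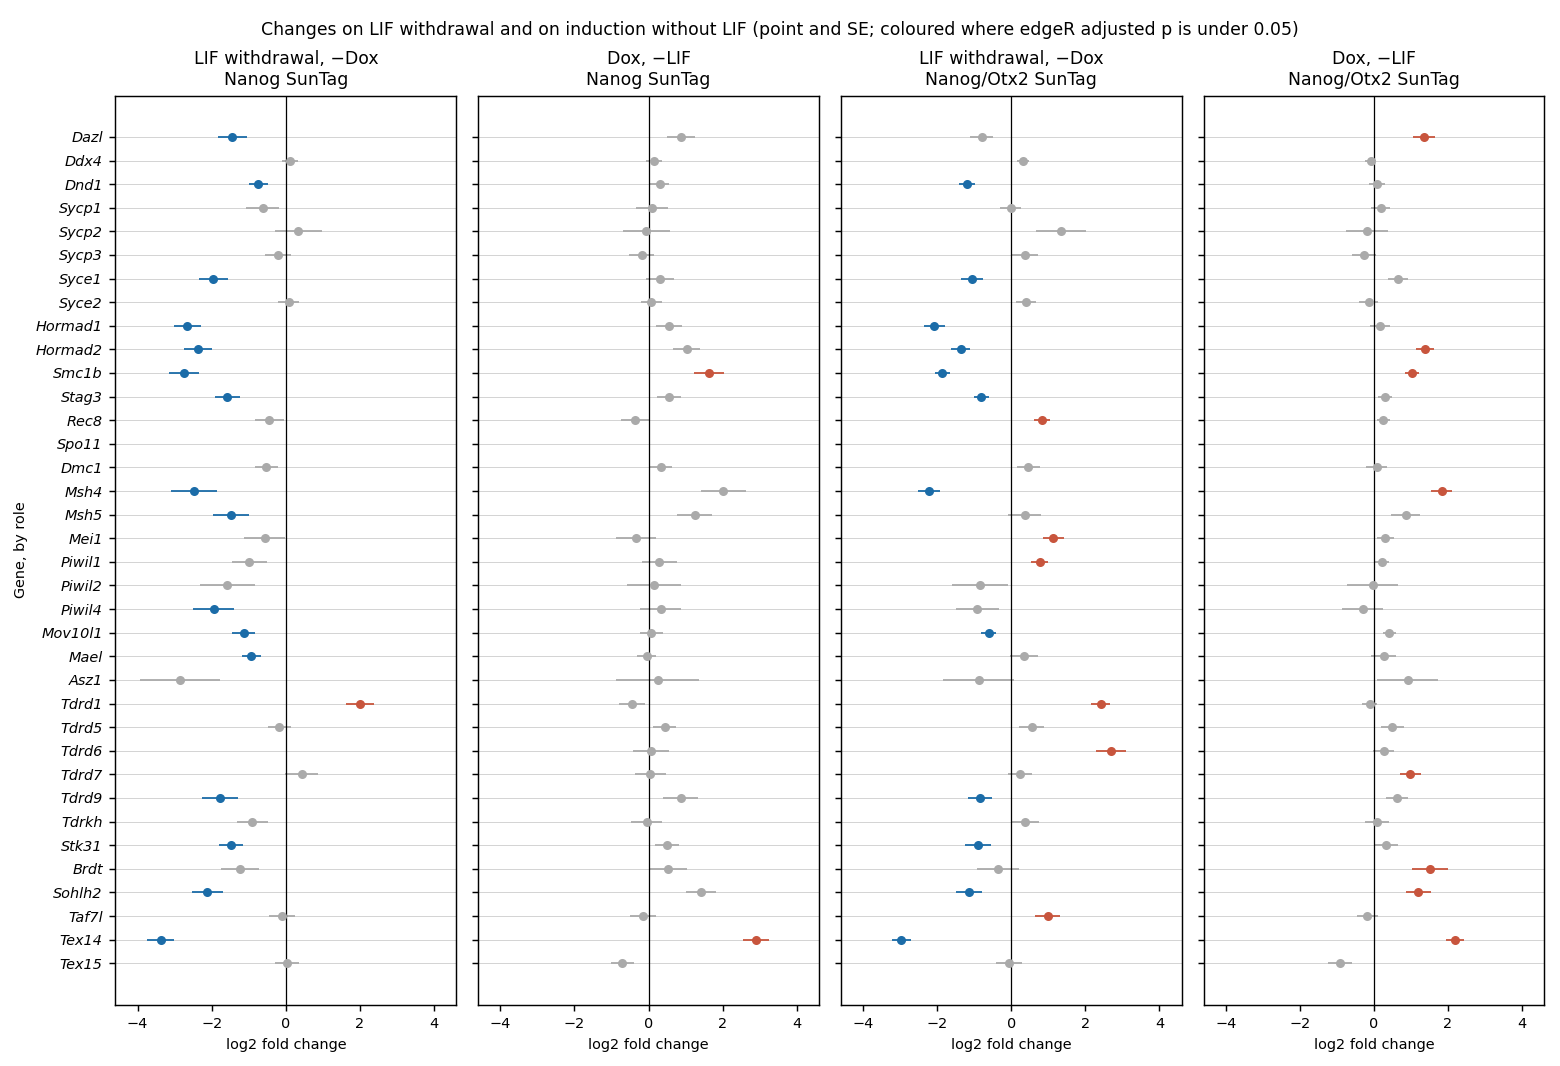
Log2 fold changes (horizontal axis, point and standard error) of the members (vertical axis, by role) on LIF withdrawal without Dox and on Dox without LIF in both SunTag lines, coloured where the adjusted p is under 0.05. Spo11 is left out of all panels, and Tdrd6 of LIF withdrawal in Nanog SunTag cells, because their +LIF −Dox libraries had at most 3 counts. That reason does not cover Dox without LIF in Nanog SunTag cells, where Spo11 was tested and not called. It had 11.6 to 17.2 normalised counts without and 0.418 to 6.00 with Dox there. Tex14 lies at −3.37 and 2.91 in Nanog SunTag cells and at −2.97 and 2.19 in Nanog/Otx2 SunTag cells.

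With LIF, 0 of 36 members were called for Dox in Nanog SunTag cells by edgeR, where 0.563% of all genes were called. At an unadjusted p under 0.05 there were 2 members, Dazl and Hormad1, among 2227 of all 15624 genes. DESeq2 and the fit with the replicate block also called 0 members, where they called 587 and 293 of all genes. Dazl had 704, 954 and 601 normalised counts without and 843 and 2635 with Dox in Nanog SunTag cells, so that the C2 library with Dox was the highest and the C1 library lay within the group without Dox.

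With LIF and both guides, in Nanog/Otx2 SunTag cells, 12 of 35 members rose with Dox and 1 fell, where 12.9% of all genes rose and 10% fell. The median log2 fold change was 0.62 over the members and −0.01 over all genes, and with the replicate block it was 0.53 and −0.01. Those that rose included Dazl, Rec8, Mei1 and Brdt, the piRNA genes Piwil1 and Mov10l1, and 6 of the 7 germ granule genes, namely Tdrd1, Tdrd5, Tdrd6, Tdrd7, Tdrd9 and Tdrkh. The 1 that fell was Hormad1.

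Dazl had 359, 407 and 667 normalised counts without and 1518, 1682, 1910.3 and 2650.1 with Dox in Nanog/Otx2 SunTag cells with LIF, a log2 fold change of 2.09 (SE 0.33, adjusted p = 0.000676) and no overlap. Tdrd7 had 37.6, 24.4 and 50.9 and 99.2, 87.4, 92.7 and 93.1, a log2 fold change of 1.44 (SE 0.33, adjusted p = 0.00611). Rec8 had 110.0, 84.4 and 139 and 215, 207, 276 and 228, a log2 fold change of 1.13 (SE 0.21, adjusted p = 0.00165). In all 3 genes the 4 libraries with Dox lay above the 3 without.

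Tdrd1 had 81.8, 75.4 and 111 normalised counts without and 157, 113, 237 and 177 with Dox, and the log2 fold change was 1.03 (SE 0.25, adjusted p = 0.00928). Brdt had 51.6, 53.8 and 213 and 169, 152, 442 and 478, a log2 fold change of 1.83 (SE 0.57, adjusted p = 0.0308), and its groups overlapped, with C2 libraries above C1 libraries on both sides. Hormad1 had 1027, 1046 and 435 and 464, 509.5, 301 and 446, a log2 fold change of −0.97 (SE 0.28, adjusted p = 0.0205), with the C2 library without Dox below 3 of the 4 with Dox. Of the 13 repressors of germline genes, 6 passed in this comparison, all lower with Dox, namely Setdb1, L3mbtl2, Pcgf6, Cbx3, Mga and Ehmt1, and the summed level of the list was 58373 to 63009 with Dox against 63253 to 76546 without, the part of which in the changes of the members was not tested.

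The number called here was 2 without the +LIF −Dox library C1ON3-2, 6 without C1ON3-1 of the same group, 8 without the +LIF +Dox library C2ON3-1 and 15 without the +LIF −Dox library C2ON3-1, which has the fewest counts of all 35. It was 19 with the replicate block, 16 higher and 3 lower, which added Piwil4 and Syce2 to those that fell, and over all genes the block raised the calls from 3577 to 6401. Dazl and Rec8 were called in 15 of 15 fits that left out a library, and Hormad1 in 12.

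Whether Dox acted differently with and without LIF was tested as the interaction of both. In Nanog SunTag cells 1 of 36 members passed, Tex14, with a difference of log2 fold changes of 2.99 (SE 0.51, adjusted p = 0.0162), where 1.93% of all genes passed. In Nanog/Otx2 SunTag cells 3 of 35 passed, where 9.7% of all genes did. These were Tex14 at 1.88 (SE 0.35, adjusted p = 0.00342), Smc1b at 0.95 (SE 0.27, adjusted p = 0.0376) and Tdrd1 at −1.15 (SE 0.32, adjusted p = 0.0368). The log2 effect of Dox was thus more positive without LIF for Tex14 and Smc1b and more positive with LIF for Tdrd1, whose Dox effect without LIF, −0.12 (SE 0.21, adjusted p = 0.748), did not pass. With the replicate block the numbers were 2 in Nanog SunTag cells, where Sohlh2 was added at 0.99 (SE 0.23, adjusted p = 0.0387), and 13 in Nanog/Otx2 SunTag cells, 6 above and 7 below 0, while the block raised the number over all genes from 302 to 709 and from 1514 to 3407. The 1 call in Nanog SunTag cells was lost, leaving 0, without either +LIF +Dox library or without the −LIF +Dox library C1-1, and in Nanog/Otx2 SunTag cells the number was 8 without the +LIF −Dox library C2ON3-1 and 1 without the +LIF −Dox library C1ON3-1 or C1ON3-2, either +LIF +Dox library of C2ON3 or the −LIF +Dox library C2ON3-1. Tex14 was called there in 15 of 15 such fits, and Smc1b and Tdrd1 in 6 each.

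The effect of Dox without LIF was then compared between both guides. By edgeR 0 of 36 members differed, where 0.0308% of all 16210 genes did. At an unadjusted p under 0.05 there was 1 member, Spo11, among 923 of all genes, and DESeq2 called 0 members and 41 genes. Spo11 passed the filter on low counts only through the −LIF −Dox group of Nanog SunTag cells, where it is high. Members called with 1 guide and not with the other are therefore not shown to respond differently. The library names of both guides start differently and the labels do not say what this marks, so that the guide and any difference between these sets of libraries cannot be told apart.

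Many members differed between the parental clones, in every class of role. With the 8 groups held constant, 22 of 36 members were higher and 4 lower in C2 than in C1, where 14.9% of all 16210 genes were higher and 16.7% lower. The median log2 difference was 0.51 over the members and −0.02 over all genes. All 6 PIWI and piRNA biogenesis genes (Piwil1, Piwil2, Piwil4, Mov10l1, Mael and Asz1) and all 3 transcription and chromatin factors (Brdt, Sohlh2 and Taf7l) were higher in C2, whereas Sycp3, Syce2, Dmc1 and Msh5 were lower.

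Piwil2, the PIWI protein of prospermatogonia and spermatogonia, had 399, 954 and 900.1 normalised counts in +LIF −Dox Nanog SunTag cells, with C1 first. In −LIF −Dox cells it had 136, 128 and 500.3, with both C1 libraries first. The Nanog/Otx2 SunTag cells had 359, 366 and 1444 in +LIF −Dox and 369, 374, 1300.1 and 1348 in +LIF +Dox cells. C2 libraries lay above C1 libraries in 8 of 8 groups, and the log2 difference was 1.93 (SE 0.08, adjusted p = 1.92e-13).

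Asz1 had 26.8, 121 and 111 normalised counts in +LIF −Dox and 41.0 and 239.5 in +LIF +Dox Nanog SunTag cells, where C1 is first. In Nanog/Otx2 SunTag cells with LIF and Dox it had 39.7, 36.2, 96.4 and 134. Its log2 difference was 2.21 (SE 0.25, adjusted p = 3.89e-07), and C2 was above C1 in 8 of 8 groups. Sycp2, a partner of Sycp3 in the chromosome axis, had 61.0, 59.5 and 194 in +LIF −Dox and 109, 137, 326 and 369.5 in −LIF −Dox Nanog/Otx2 SunTag cells, and a log2 difference of 1.56 (SE 0.13, adjusted p = 4.43e-09), whereas Sycp3 had one of −0.62 (SE 0.13, adjusted p = 0.00103).

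The C2 libraries were above all C1 libraries of the same group in 8 of 8 groups also for Sycp2, given above, and for Syce1, Piwil4, Mov10l1, Mael, Tdrd5, Tdrkh and Brdt, the latter with log2 differences between 0.52 (Mov10l1) and 1.33 (Piwil4). This was not counted over all genes. Some groups hold 1 library of a clone, and the 8 groups come from the same parental clones, so that they are not separate tests. The 4 members that were lower in C2 had log2 differences of −0.62 (Sycp3), −0.60 (Msh5), −0.59 (Syce2) and −0.53 (Dmc1, the meiotic recombinase). Nanog itself was lower in C2, with a log2 difference of −0.61 (SE 0.14, adjusted p = 0.0017), and its part in the difference of the members was not tested. Of the 13 repressors of germline genes, Dnmt3a and Max were higher and Dnmt3b, L3mbtl2 and Ehmt1 lower in C2. Of the 2-cell-like genes 5 of 7 tested, Zscan4b, Zscan4c, Zscan4d, Zscan4e and Zscan4f, were lower in C2, with a median log2 difference of −0.91 over the list, and these genes are near-identical copies whose reads may be split between them. Of the 6 naive ES genes Klf4, Tbx3 and Tfcp2l1 were higher in C2. Of the other meiosis and piRNA genes 13 of 35 were higher and 2 lower, with a median of 0.17. The part of these genes in the difference of the members was not tested.

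In the 11 Nanog SunTag libraries alone, 13 members were called between the clones, 12 higher and 1 lower in C2, against 26 in all 26 libraries. Over all genes that smaller fit called 1129 of 15624, against 5123 of 16210. Piwil2, Asz1 and Brdt were called in 26 of 26 fits that left out a library, Tex14 in 17 and Sycp1 in 11, and this is the 1 comparison in which Sycp1 was called. Each guide line is 1 clone of C1 and 1 of C2, so that these differences describe those lines, and the Nanog/Otx2 lines descend from the Nanog lines.

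**Figure D4:**
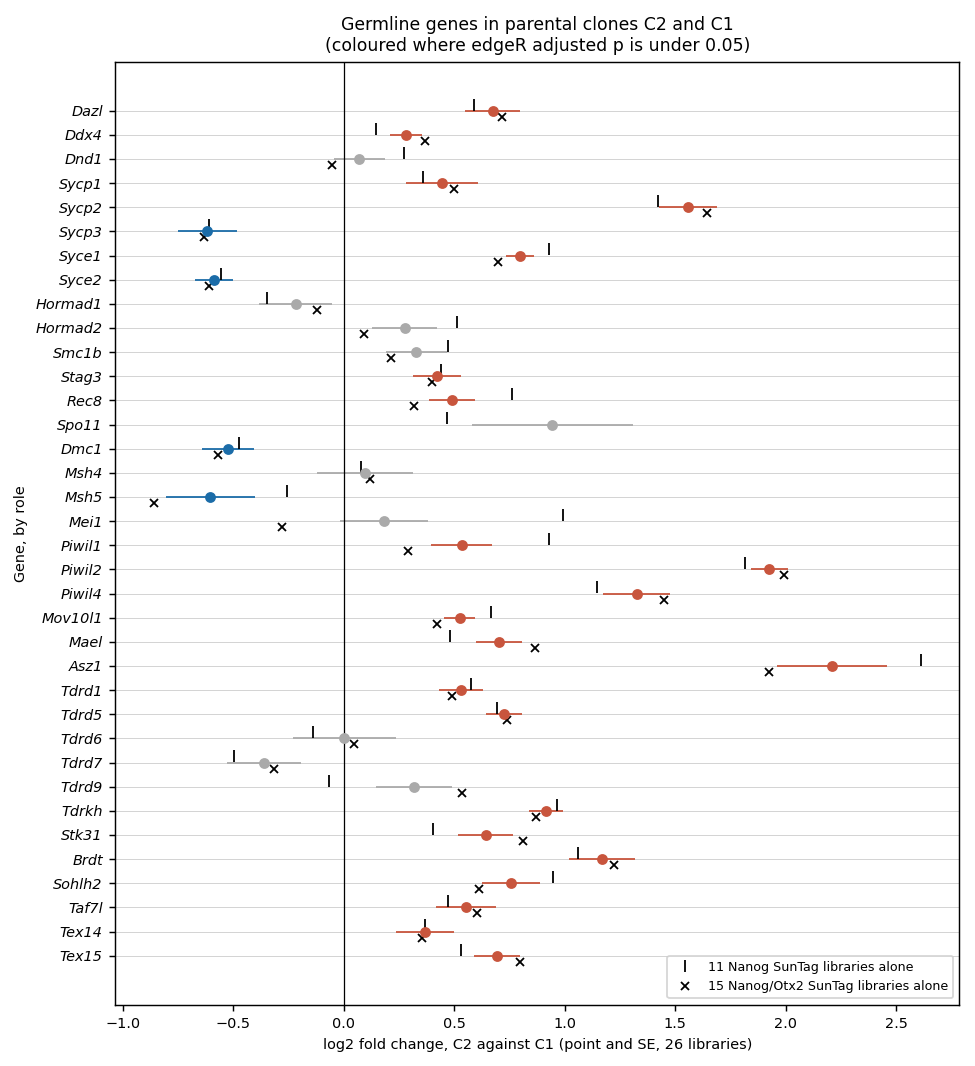
Log2 difference between clones C2 and C1 (horizontal axis, point and standard error over 26 libraries, coloured where the adjusted p is under 0.05) for each member (vertical axis, by role), with black marks for the 11 Nanog and the 15 Nanog/Otx2 SunTag libraries alone. Asz1 (2.21) and Piwil2 (1.93) lie to the right and Sycp3 (−0.62) lies on the left.

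After 24 h without Dox, which lowers Nanog in 44iN cells, 0 of 34 members tested were called by edgeR, where 0% of all 14376 genes were called. Nanog itself, with a log2 fold change of −4.56 (SE 0.30, adjusted p = 0.0902), did not pass, so that the 0 does not show that members were unchanged. At an unadjusted p under 0.05 there was 1 member, Tdrd5, among 1023 genes, and DESeq2 called 0 members and 141 genes. With the library number as a replicate block, edgeR called 5 of 34 members, 4 higher and 1 lower, and 1912 of all genes tested. Dazl had 2669 and 1482 normalised counts with Dox and 2424 and 1736 at 24 h, and Tex14 1448 and 1331 and 1574 and 1718. For Dazl the spread between both libraries with Dox exceeded the difference between the groups. When the library with Dox numbered 1 was left out, which leaves 1 library in that group, 5 members were called.

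Wild-type Tg2a cells were the reference for long-term 44iN cells, which lack Nanog. In the long-term cells 7 of 33 members tested passed, all lower than in Tg2a cells, where 5.26% of all genes were lower. The 7 were Dazl, the axis genes Sycp3 and Hormad2, the PIWI genes Piwil1, Piwil2 and Piwil4, and Tex14. The median log2 difference was −0.30 over the members and −0.05 over all genes.

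Dazl had 380.1 and 285 normalised counts in long-term 44iN cells and 862, 989 and 949 in Tg2a cells, a log2 difference of −1.56 (SE 0.20, adjusted p = 0.00616). Piwil4 had 51.3 and 45.6 and 153, 182 and 217, with an adjusted p of 0.00942. Piwil2 had 382 and 371 and 857, 758 and 897, a log2 difference of −1.23 (SE 0.18, adjusted p = 0.00864). In these 3 genes both long-term libraries lay below the 3 Tg2a libraries.

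Piwil2 was also the 1 member called in 44iN cells kept in Dox, where it had 423 and 439 normalised counts, a log2 difference from Tg2a cells of −1.02 (SE 0.18, adjusted p = 0.0197), and where 3.12% of all genes were lower. Its level in 44iN cells was 413 and 526 at 24 h, so that every 44iN library, with or without Dox, lay below every Tg2a library. The Tg2a libraries are shared by both comparisons.

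Against 44iN cells at 24 h, 3 of 34 members passed in long-term cells, Dazl, Ddx4 and Tex14, all lower, where 4.46% of all genes were lower. Ddx4 had 1184 and 1167 normalised counts in long-term culture and 3588 and 2419.5 at 24 h, a log2 difference of −1.29 (SE 0.33, adjusted p = 0.0454). Dazl had a log2 difference of −2.58 (SE 0.31, adjusted p = 0.00564) and Tex14 one of −0.95 (SE 0.21, adjusted p = 0.03), with 711 and 919 and 1574 and 1718 normalised counts. The groups did not overlap for these 3 genes.

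The counts with long-term cells, 7 and 3, both became 0 without either of the 2 long-term libraries, which leaves 1 library in that group. Against Tg2a cells the 7 became 3 without the Tg2a library 2, and against 24 h the 3 became 1 without either library of 24 h or the Tg2a library 2, 7 without the library with Dox numbered 1 and 8 without that numbered 2. The 1 call in 44iN cells with Dox became 0 without the library with Dox numbered 1 or the Tg2a library 1 or 2, and 4 members were called without the library with Dox numbered 2. Other genes differed between these cells, too. The primitive endoderm list summed to 14243 to 25968 normalised counts in long-term 44iN cells and 12561 to 21287 in Tg2a cells, but to 784 to 2203 at 24 h and 303 to 1248 with Dox, and the naive list to 32910 to 33098 in long-term cells and 55386 to 60151 in Tg2a cells. Their part in the differences of the members was not tested. The absence of Nanog cannot be told apart from the line, its time in culture and the G418 selection of the long-term cells.

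**Figure D5:**
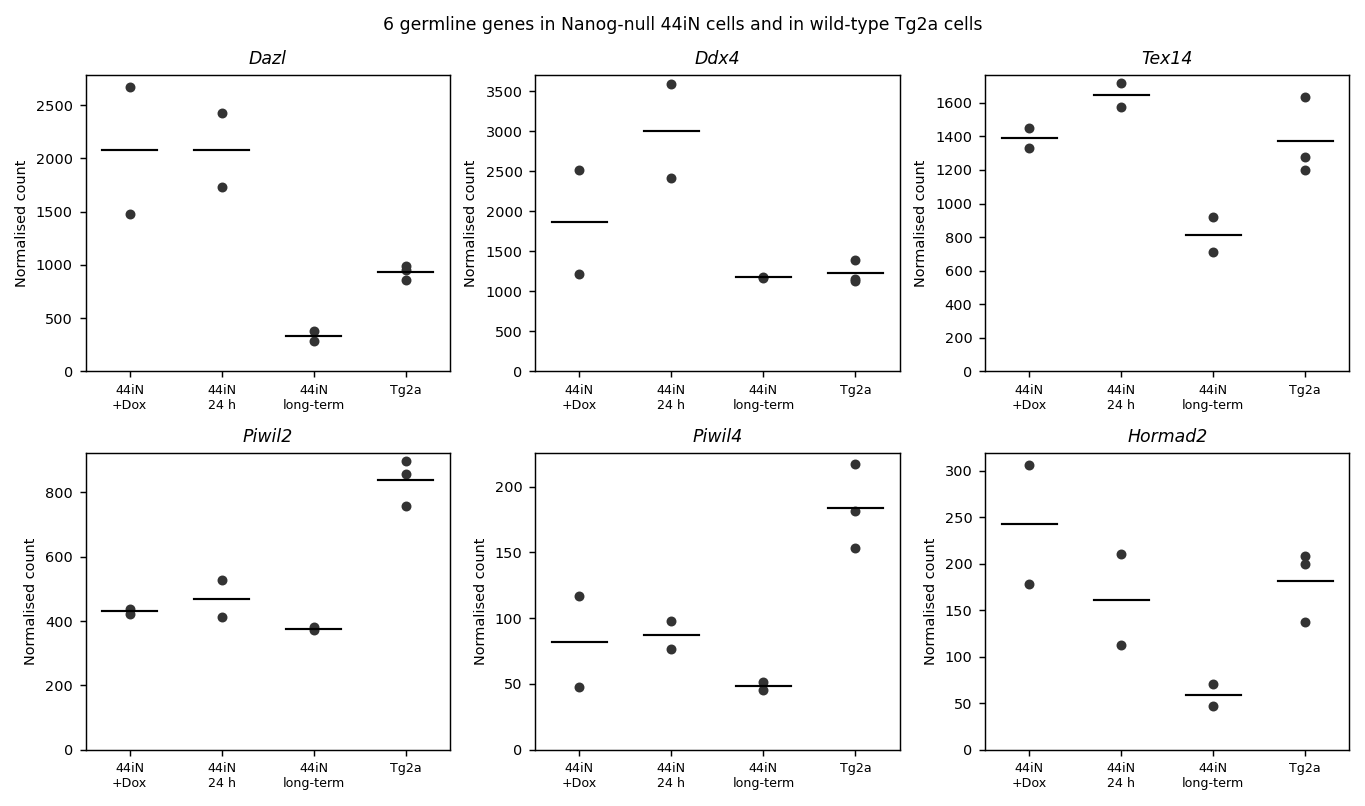
Normalised counts (vertical axis from 0) of Dazl, Ddx4, Tex14, Piwil2, Piwil4 and Hormad2 in 44iN cells with Dox, 24 h without and in long-term culture without it, and in Tg2a cells, with 1 point per library and a bar at the group mean. Dazl is at 380.1 and 285 in the long-term libraries, below the other libraries, and Piwil2 is higher in the 3 Tg2a libraries than in all 44iN libraries.

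The letters in the promoters were set beside these calls. On LIF withdrawal without Dox in Nanog SunTag cells, members fell in 3 of 7 with CACGTG alone, 3 of 6 with TCCCGC alone, 3 of 7 with both and 6 of 11 with neither, and in Nanog/Otx2 SunTag cells in 3, 2, 2 and 4 of these. Members higher in C2 were 6 of 7, 3 of 6, 4 of 7 and 7 of 11. The median number of CG dinucleotides, in the promoter of each member with the most, was 16.0 for the members with neither and 20.0 to 24.0 for the others. Tex14 and Smc1b, which rose with Dox without LIF in both lines, both hold TCCCGC alone, and Dazl, Hormad2, Msh4, Tdrd7 and Sohlh2, which rose in Nanog/Otx2 SunTag cells, hold neither in the whole promoter. Brdt, which also rose in Nanog/Otx2 SunTag cells, holds CACGTG alone.

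Each of the 36 members was called in at least 1 of the 16 comparisons, and 23 were called in 3 or more, Tex14 in 10, Dazl in 8 and Tdrd1 in 7. These counts were not made over all genes. Single comparisons called up to 7768 of 15609 genes, and comparisons share libraries, so that the counts do not set the members apart from other genes. Sycp1, Sycp2, Spo11 and Dmc1 were called in 1 each. In the 4 comparisons of LIF withdrawal, Syce1, Hormad1 and Mov10l1 were lower in 4 of 4, of which the calls of Hormad1 and Mov10l1 with Dox in Nanog SunTag cells depended on single libraries, as given above. No member shares exons with another gene on its own strand. Dnd1, Sycp3 and Piwil4 overlap Wdr55, Chpt1 and Gm10706 on the opposite strand, and the reads were counted by strand.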

How the data were processed

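RNA was sequenced as stranded mRNA libraries. Reads were placed on mm9 by the authors using STAR and were counted by RSEM, and the deposited tables hold rounded estimated counts per gene in 1 file and counts divided by DESeq2 size factors (a normalised signal) in the other. The estimated counts were tested and the normalised counts are the levels given. Groups came from the sample labels. edgeR 4.0.16 (R 4.3.3) was used after TMM scaling with the quasi-likelihood F-test, in 1 model per SunTag line, 1 for the 26 SunTag libraries (clone and guide difference) and 1 for each 44iN comparison set, over the genes that reached 10 normalised counts in each library of any group. p-values were adjusted over all genes tested by the Benjamini-Hochberg method, with 0.05 as the threshold. Each SE of a log2 fold change, also in the figures, is its absolute value divided by the square root of the F statistic. DESeq2 1.42.0 was the alternative, and the fits were tested on simulated data with known changes. Figures used matplotlib 3.10.9.

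The same parental clone is the same cell line, so libraries were paired by clone in a replicate block (in Nanog SunTag cells deviations from the group means of same-clone pairs correlated at 0.15 on average against −0.14 for other pairs), with the library number for Nanog/Otx2 SunTag cells, where the 21 same-numbered pairs correlated at 0.30 on average and at least 0.13, against −0.10 for other pairs. The members, the other lists and the tests were chosen with earlier results of these data known. Values per library are given for members called at least once, and statistics for those with the largest changes or called in 3 or more comparisons, while low members are given by range. The other lists were other meiosis and piRNA genes, repressors of germline genes, primordial germ cell specification, naive ES, post-implantation epiblast, primitive endoderm and 2-cell-like genes. 3 libraries of Tg2a cells in 2i and the ChIP-seq and ATAC-seq data are not analysed here.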

Additional observations from a re-analysis of the deposited data

Results flagged for a closer look

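The effect of Dox differed between cells with and without LIF, by the interaction term of edgeR, for Tex14 by 2.99 on the log2 scale in Nanog SunTag cells and by 1.88 in Nanog/Otx2 SunTag cells. In the latter it also differed for Smc1b, by 0.95, and for Tdrd1, by −1.15. Among the −LIF +Dox libraries of Nanog/Otx2 SunTag cells, Tex14 had 530.1 normalised counts in C1ON3-1 against 857 to 908 in the other 3, a gap that made up 0.864 of the whole range. It was the 1 group out of 104 tested in which a library stood this far from the rest, and chance alone gives about 1 in 20.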

How the results depend on the processing

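No member called in a comparison changed direction under any alternative, and the number of members called stayed within 1.5 times under those not named here. DESeq2 called 4 members for Dox without LIF and 2 for the interaction in Nanog SunTag cells, 5 for the interaction in Nanog/Otx2 SunTag cells, 11 between long-term 44iN and Tg2a cells, 8 between long-term culture and 24 h, and 3 between 44iN cells with Dox and Tg2a cells, where DESeq2 size factors in edgeR and no filter on low counts gave 2 each. In these comparisons, in the same order, DESeq2 called 1509, 877, 1961, 2294, 2555 and 1568 of all genes, and edgeR called 803, 302, 1514, 1286, 1339 and 723. Between the clones 13 members were called in the Nanog SunTag libraries alone.

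Paired by clone in a replicate block, 4 members were called for Dox without LIF and 2 for the interaction in Nanog SunTag cells. In Nanog/Otx2 SunTag cells the replicate block gave 28 for LIF withdrawal without Dox, 15 for Dox without LIF and 13 for the interaction. No member called in the LIF and Dox comparisons without the block lost its call with it. A block by the numbers of the table's columns, added after seeing the data, gave 4 in the first of these comparisons. On LIF withdrawal without Dox in Nanog SunTag cells it called 18 and kept 16 of the 19 calls, those of Spo11, Tdrd6 and Dnd1 being lost. The column numbers and the sample titles disagree for some libraries. In Nanog/Otx2 SunTag cells it gave 29 and 23 for LIF withdrawal without and with Dox, 14 for Dox without LIF and 11 for the interaction. A block by parental clone alone, also added, gave 13 and 9 for the last of these. The calls over all genes with these added blocks are not given here, so that these counts do not set the members apart from other genes. In 44iN and Tg2a cells libraries share only a number. Their same-numbered deviations correlated at 0.492 in 44iN cells with Dox and at 24 h, and at 0.079 to 0.188 for long-term 44iN and Tg2a cells. With 2 libraries per group the deviations are exact opposites, so that the 0.492 is a single value and other pairs hold its negative. A replicate block in these cells gave 5 at 24 h, 17 between long-term 44iN and Tg2a cells and 8 between long-term culture and 24 h. Over all genes that block called 1912 of 14376, 4840 of 14937 and 2422 of 15326 in the same order.

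When each library was left out in turn, the number called on LIF withdrawal ran from 13 to 22 without and 2 to 12 with Dox in Nanog SunTag cells, and from 15 to 19 and 11 to 17 in Nanog/Otx2 SunTag cells. For Dox without LIF it ran from 1 to 4 and from 5 to 9, for Dox with LIF from 2 to 15 in Nanog/Otx2 SunTag cells, and for the interaction from 0 to 1 and from 1 to 8. Between the clones it was 23 to 28. For 44iN cells it was 0 to 5 at 24 h, 0 to 9 for long-term cells and 0 to 4 for cells with Dox against Tg2a cells, and 0 to 8 for long-term culture against 24 h. Where 1 library was left in a group, it was assumed to vary like the others. The calls over all genes are not given for the fits that left out a library. Their counts of members therefore show how far the calls hang on single libraries and do not set the members apart. Depth limits Spo11, Tdrd6, Mei1 and Tdrd9, and the cause of these changes was not tested.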
